A study of Mus musculus with 7 samples.

Results

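The 44 genes described here act in mitosis and chromosome segregation, and they were taken as a fixed list of gene names out of the 30879 genes in the expression table. They were followed in mouse thyroid follicular cell organoids (TFCOs), cystic cultures grown in basement membrane extract from thyroid cells, and in the thyroid itself. Every sample came from wild type C57BL/6 mice, and no sample was treated. The mice that gave the organoids were female, per the study's methods. The 5 TFCO samples, 3 labeled late passage (late 1 to late 3) and 2 labeled early passage (early 1 and early 2), were compared with 2 samples of thyroid tissue (tissue 1 and tissue 2). The labels give the passage stage without a passage number, and nothing says which samples shared a mouse or an organoid line, so p-values here measure the spread between these samples, which may be technical. Of 2590 cells, 747 from tissue and 1843 from organoids, the 2035 with at least 1000 unique molecular identifiers (UMIs, tags that mark single captured RNA molecules) were used, 1457 of them from organoids.

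A cell that divides copies its DNA, then condenses its chromosomes, attaches them to a spindle of microtubules, pulls the copies apart and divides. Cyclin-dependent kinase 1 with its A and B cyclins starts this sequence, the spindle checkpoint holds it until every kinetochore is attached, and the anaphase-promoting complex ends it by marking cyclin B and securin for destruction. Most of the genes are transcribed late in the cycle, so that their RNA is common in cells close to division and scarce in resting cells. Follicular cells of the adult thyroid, which make thyroglobulin and thyroid hormone, divide rarely.

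Promoters of such genes are known for 2 short elements, the CCAAT box bound by NF-Y and the cell cycle gene homology region (CHR), TTTGAA, bound by the DREAM and MuvB complexes. Windows of 250 bases before to 50 bases after the transcription start (RefSeq, GRCm38.p6) were found for 37 of the 44 genes. TTTGAA or its reverse complement TTCAAA stood in a window of 29 of these 37 genes (78.4%), against 20.2% of the 27025 genes with windows. CCAAT or ATTGG stood in 28 of the 37 (75.7%), against 41.1%, and both elements together stood in 25 of the 37 (67.6%), against 7.97% of all genes. An E2F site, GCGGGAA or TTCCCGC, stood in the window of 1 of the 37 genes, Ncapg, against 5.29% of all genes. A match in a window is a match of letters, and no binding was measured. The windows of 3 genes whose RNA was concentrated in the same few organoid cells (Mki67, Ccnb2 and Cenpf) and of 2 whose RNA was spread over many cells (Bub3 and Pttg1, both described below by their values) are given 5′ to 3′ on the gene's own strand. Capitals mark CCAAT or ATTGG and TTTGAA or TTCAAA.
Mki67, chr7:135716330-135716629, minus strand: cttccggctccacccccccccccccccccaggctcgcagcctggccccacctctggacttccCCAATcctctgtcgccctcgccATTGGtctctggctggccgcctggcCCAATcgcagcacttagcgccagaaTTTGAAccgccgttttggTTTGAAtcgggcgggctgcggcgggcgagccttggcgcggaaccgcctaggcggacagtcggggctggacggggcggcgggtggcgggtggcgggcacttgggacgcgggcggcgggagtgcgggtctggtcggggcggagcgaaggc
Ccnb2, chr9:70421505-70421804, minus strand: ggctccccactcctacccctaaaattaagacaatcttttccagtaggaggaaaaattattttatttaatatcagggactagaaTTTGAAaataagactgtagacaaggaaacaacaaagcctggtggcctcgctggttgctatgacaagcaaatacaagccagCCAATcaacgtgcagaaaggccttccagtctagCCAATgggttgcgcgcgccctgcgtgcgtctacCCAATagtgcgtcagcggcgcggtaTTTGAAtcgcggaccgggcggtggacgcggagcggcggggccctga
Cenpf, chr1:189688037-189688336, minus strand: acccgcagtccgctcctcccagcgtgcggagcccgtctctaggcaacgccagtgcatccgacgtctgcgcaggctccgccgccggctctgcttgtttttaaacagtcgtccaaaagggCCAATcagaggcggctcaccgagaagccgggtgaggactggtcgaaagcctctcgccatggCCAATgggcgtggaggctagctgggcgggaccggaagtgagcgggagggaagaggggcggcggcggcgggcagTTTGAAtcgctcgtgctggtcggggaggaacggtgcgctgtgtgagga
Bub3, chr7:131560120-131560419, plus strand: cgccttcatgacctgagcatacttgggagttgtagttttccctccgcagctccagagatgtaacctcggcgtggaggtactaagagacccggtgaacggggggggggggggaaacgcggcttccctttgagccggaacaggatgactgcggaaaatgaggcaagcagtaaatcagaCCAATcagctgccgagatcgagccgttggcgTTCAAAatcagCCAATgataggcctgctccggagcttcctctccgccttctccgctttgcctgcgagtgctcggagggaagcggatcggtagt
Pttg1, chr11:43425932-43426231, minus strand: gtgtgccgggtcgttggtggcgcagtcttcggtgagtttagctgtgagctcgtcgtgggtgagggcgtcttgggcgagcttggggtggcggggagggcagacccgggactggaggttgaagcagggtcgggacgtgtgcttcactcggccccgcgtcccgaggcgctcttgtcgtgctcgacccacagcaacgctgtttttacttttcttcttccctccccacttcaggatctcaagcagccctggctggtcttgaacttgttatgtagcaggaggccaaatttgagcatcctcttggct
The first 3 windows each held both elements, the Bub3 window held both as well, and the Pttg1 window held neither. The Pttg1 gene is also annotated with a start at 43426251 on the minus strand, so this window lies inside the gene. Bases before that other start were not in the window, and its lack of both elements does not describe them. Over the whole list, the 25 genes with both elements and the 12 with a window that lacked one or both overlapped in how strongly their RNA was gathered in a few cells, by the ratio of levels defined further on. That ratio ran from 2.21 to 34.7 with a median of 11.6 in the former and from 2.17 to 45.1 with a median of 10.3 in the latter. Ccna2, Cdc25c, Aurkb, Incenp, Tpx2, Kif20a and Smc4 had no window in the table.

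The organoid samples held 235 to 360 cells each with median depths of 5011 to 12380.5 UMIs, and 98.5% of organoid cells scored highest for follicular cell markers among the cell types scored (94.2% in early 2, the lowest). Of 578 tissue cells, a cluster led by thyroglobulin gave 96 thyroid follicular cell-like (TFC-like) cells, 48 from each sample, with median depths of 2331 and 2102 UMIs. Pth and Calca, genes of parathyroid and C cells, were also among the leading genes of that cluster, and 18 of its cells with higher scores for other cell types were set aside. Tissue 2 held 2 TFC-like wells of 268847 and 151110 UMIs, against 21071 UMIs in its next deepest cell, and these wells carried 165 of the 250 UMIs of the 44 genes found in tissue TFC-like cells. Levels are given as the mean over cells of UMIs per 10000 UMIs of the cell, so that each well counts as 1 cell. The summed level of the 44 genes in tissue 2 was 3.39 with these wells and 3.37 without them. One UMI stands for 1 captured molecule whatever the length of the gene, so levels on this scale are not set by gene length. Capture and counting may still differ between genes and were not measured, which limits any ranking of genes by level.

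All of the 44 genes were present in every organoid sample, and for most of them the organoid samples lay above the tissue. Summed over the 44 genes, the level was 7.80, 15.4 and 10.8 in late 1 to late 3, 19.2 and 9.95 in early 1 and early 2, and 3.14 and 3.39 in the TFC-like cells of tissue 1 and tissue 2. The organoid mean was 12.6 ± 4.60 (SD, n = 5) and the tissue mean 3.26 ± 0.175 (SD, n = 2). For 30 of the 44 genes every organoid sample was above both tissue samples. Of the 30 members with levels high enough for the test described below, this held for 17, against 35.7% of all genes tested. For all 44 genes no such share over all genes was computed. Members too low for the test were mostly at or near 0 UMIs in tissue, where samples separate easily, so the count over the 44 cannot be read as a result. Fewer cells with such RNA and less RNA per cell cannot be told apart in a mean over cells. In TFC-like cells, 7 of the 44 genes had no UMI, and 24 had fewer than 4.

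**Figure D1:**
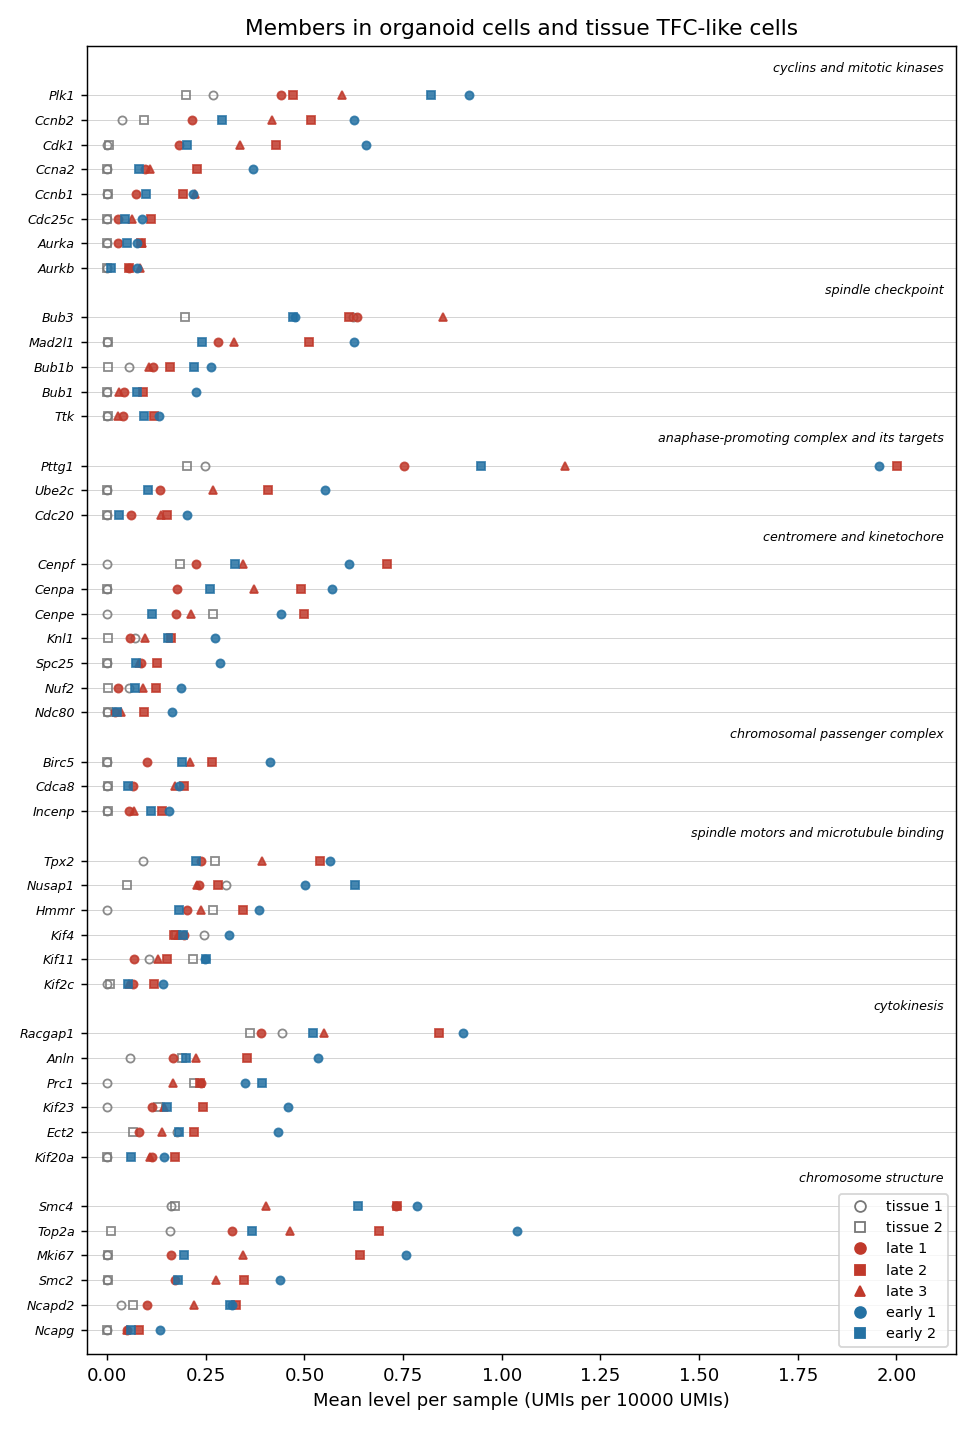
Mean level of each of the 44 genes per sample, in UMIs per 10000 UMIs (horizontal axis), by role; open gray symbols are the TFC-like cells of the 2 tissue samples, red symbols the 3 late and blue symbols the 2 early organoid samples. Most genes sit near 0 in tissue, and Pttg1 reaches the highest level, 2.00 in late 2.

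The cyclins and mitotic kinases drive entry into mitosis. Plk1, a kinase needed for spindle assembly and mitotic exit, was at 0.440, 0.471 and 0.596 in late 1 to late 3, at 0.916 and 0.821 in early 1 and early 2, and at 0.268 and 0.201 in tissue 1 and tissue 2. Ccnb2, a B-type cyclin, was at 0.216, 0.516 and 0.418 in the late samples, at 0.627 and 0.291 in the early samples, and at 0.0381 and 0.0940 in tissue. Cdk1, the kinase that these cyclins activate, was at 0.181, 0.427 and 0.338, at 0.656 and 0.203, and at 0 and 0.00414 in the same order. Organoid and tissue samples did not overlap for any of the 3 genes, and Plk1 alone of them was well above 0 in both tissue samples. The other 5 genes of the group, Ccna2, Ccnb1, Cdc25c, Aurka and Aurkb, had organoid means of 0.0556 (Aurkb) to 0.177 (Ccna2) and at most 1 UMI each in TFC-like cells.

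The spindle checkpoint genes fell into unlike patterns. Bub3, which binds checkpoint kinases to kinetochores, was the only gene of the group whose samples overlapped between organoids and tissue: 0.632, 0.614 and 0.850 in late 1 to late 3, 0.475 and 0.471 in the early samples, and 0.622 and 0.198 in tissue. Mad2l1, the Mad2 protein that blocks the anaphase-promoting complex, was at 0.280, 0.512 and 0.321 in the late, 0.625 and 0.241 in the early, and 0 and 0.00215 in the tissue samples. Bub1b, which encodes BubR1, was at 0.117, 0.159 and 0.106 in the late, 0.263 and 0.221 in the early, and 0.0561 and 0.00155 in the tissue samples. Mad2l1 was thus listed at or near 0 in tissue, whereas Bub3 was not. Bub1, a checkpoint kinase, was at 0.0427, 0.0910 and 0.0292 in the late samples, 0.226 and 0.0764 in the early samples and 0 and 0.000775 in tissue, and Ttk had an organoid mean of 0.0824 ± 0.0462 (SD, n = 5). The Bub3 gene overlaps Fgfr2 on the other strand, and whether strand was used in counting is not given in the sources used here. Other members, among them Plk1, Nusap1, Kif4, Prc1, Ccna2, Cdc20, Kif20a and Top2a, also overlap a gene on the other strand.

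Of the anaphase-promoting complex and its targets, Pttg1 had the highest level of the 44 genes. Pttg1 (securin, which keeps separase inactive until anaphase) was at 0.751, 2.00 and 1.16 in the late, 1.96 and 0.949 in the early, and 0.249 and 0.203 in the tissue samples. Ube2c, the ubiquitin-conjugating enzyme of the complex, was at 0.134, 0.408 and 0.267 in the late and 0.553 and 0.103 in the early samples, and Cdc20, its activator, at 0.0593, 0.151 and 0.136 in the late and 0.203 and 0.0311 in the early samples. Neither Ube2c nor Cdc20 had a UMI among the 96 TFC-like cells.

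Centromere and kinetochore genes were uneven in tissue. Cenpf, a large protein of the outer kinetochore, was at 0.224, 0.710 and 0.345 in the late, 0.614 and 0.325 in the early, and 0 and 0.184 in the tissue samples. Cenpa, the histone H3 variant that marks centromeres, was at 0.177, 0.490 and 0.371 in the late and 0.569 and 0.260 in the early samples, with no UMI in TFC-like cells. Cenpe, a kinetochore motor, was at 0.175, 0.500 and 0.214 in the late, 0.442 and 0.114 in the early, and 0 and 0.268 in the tissue samples. The Cenpe level of tissue 2 came from 5 UMIs and lay above 3 of the 5 organoid samples, so the groups overlapped, as they did for Nuf2. Nuf2, of the Ndc80 complex that grips microtubules, was at 0.0288, 0.123 and 0.0914 in the late, 0.188 and 0.0698 in the early, and 0.0544 and 0.00215 in the tissue samples. Spc25, of the same complex, was at 0.0860, 0.127 and 0.0804 in the late, 0.285 and 0.0731 in the early, and 0 and 0.000775 in the tissue samples. Knl1 overlapped between the groups, with an organoid mean of 0.149 ± 0.0816 (SD, n = 5), and Ndc80, with a mean of 0.0670 ± 0.0611 (SD, n = 5), did not.

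The chromosomal passenger complex, which corrects faulty spindle attachments, was barely found in TFC-like cells, with 1 to 3 UMIs for each of its 3 genes. All of these UMIs lay in the 2 deep wells of tissue 2. The median depths of 2331 and 2102 UMIs leave few UMIs to be found in the other cells, so low levels there could be missed. Birc5 (survivin) was at 0.102, 0.266 and 0.209 in the late and 0.414 and 0.191 in the early samples, against 0 and 0.000775 in tissue. Cdca8 (borealin) was at 0.0647, 0.195 and 0.172 in the late and 0.183 and 0.0527 in the early samples, against 0 and 0.00293. Incenp, the scaffold of the complex, was at 0.0556, 0.138 and 0.0691 in the late and 0.157 and 0.111 in the early samples, against 0 and 0.00293. Organoid and tissue samples did not overlap for any of the 3.

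Spindle motors and microtubule binding genes mostly overlapped between organoids and tissue, since Kif2c alone of the 6 had every organoid sample above both tissue samples. Tpx2, which activates Aurora A on the spindle, was at 0.238, 0.539 and 0.392 in the late, 0.565 and 0.225 in the early, and 0.0911 and 0.273 in the tissue samples. Nusap1, which bundles spindle microtubules, was at 0.234, 0.280 and 0.227 in the late, 0.500 and 0.627 in the early, and 0.302 and 0.0507 in the tissue samples. Hmmr, a spindle pole protein and hyaluronan receptor, was at 0.202, 0.345 and 0.238 in the late, 0.385 and 0.182 in the early, and 0 and 0.269 in the tissue samples. In tissue these 3 levels rested on 0 to 5 UMIs per sample. Kif2c, a motor that takes microtubules apart at kinetochores, was at 0.0655, 0.119 and 0.0544 in the late, 0.141 and 0.0534 in the early, and 0 and 0.00629 in the tissue samples. Kif4 and Kif11 had organoid means of 0.209 and 0.170 and tissue means of 0.210 and 0.163.

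Cytokinesis genes, which build the central spindle and the contractile ring, also overlapped, with the exception of Kif20a. Racgap1, part of the centralspindlin complex, was at 0.389, 0.840 and 0.550 in the late, 0.901 and 0.521 in the early, and 0.443 and 0.361 in the tissue samples. Anln (anillin), a scaffold of the ring, was at 0.167, 0.353 and 0.224 in the late, 0.534 and 0.199 in the early, and 0.0578 and 0.191 in the tissue samples. Prc1, which crosslinks the central spindle, was at 0.238, 0.236 and 0.166 in the late, 0.351 and 0.392 in the early, and 0 and 0.221 in the tissue samples. For Racgap1 only late 1 fell within the tissue range, and for Prc1 only late 3 did. Kif20a, a motor of the central spindle, was at 0.115, 0.171 and 0.110 in the late and 0.144 and 0.0595 in the early samples and had no UMI in TFC-like cells. Kif23 and Ect2 had organoid means of 0.222 ± 0.141 and 0.211 ± 0.134 (SD, n = 5).

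Chromosome structure genes were above tissue in all 5 organoid samples for each of the 6 members. Smc4, a condensin subunit, was at 0.732, 0.735 and 0.404 in the late, 0.786 and 0.635 in the early, and 0.161 and 0.172 in the tissue samples. Top2a, the topoisomerase that untangles sister chromatids, was at 0.316, 0.689 and 0.463 in the late, 1.04 and 0.366 in the early, and 0.161 and 0.00861 in the tissue samples. Mki67, which coats mitotic chromosomes and is the usual proliferation marker, was at 0.161, 0.641 and 0.344 in the late, 0.757 and 0.195 in the early, and 0 and 0.00293 in the tissue samples. For all 3, early 1 was the highest organoid sample. Smc2, Ncapd2 and Ncapg, the other condensin subunits, had organoid means of 0.282, 0.255 and 0.0750.

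None of these differences between organoids and tissue passed the test across all genes. The comparison asks whether follicular cells in culture carry more RNA of the mitotic genes than those of the gland. With limma and Benjamini-Hochberg adjustment over 12118 genes, 443 genes (3.66%) were higher in organoids. Of the 30 members that reached the filter (a mean of 0.1 over the 3 group means), 0 were called. At an unadjusted p under 0.05 in limma were 11 of the 30, against 3410 of the 12118 genes. All 30 differences were positive, from 0.01 (Kif4) to 0.92 (Pttg1) on the scale of log2(level + 1), with a median of 0.25, where the median of all genes tested was 0.11. A member under 0.1 in tissue, such as Ube2c, Cenpa or Cdk1, reached the filter only by being higher in organoids. The count of positive differences was therefore partly fixed in advance. The smallest adjusted p values in the limma fit were 0.0940 (Plk1, 0.44) and 0.0985 (Smc4, 0.51). Every organoid sample was above both tissue samples for 17 of these 30 members, against 35.7% of all genes tested. The filter bears on this count in the same way. The fit gave tissue samples a weight of 0.339 and organoid samples 1.54, and with equal weights limma called 16 of the 30 members higher, together with 3193 of the 12118 genes. When each sample was centered on its median gene, all genes split into 198 higher and 578 lower instead of 443 and 331, and 0 members were called. Without tissue 1, also with equal weights, 12 of 30 members and 3243 of 12159 genes were called higher, and without tissue 2, 14 of 30 members and 3689 of 12009 genes.

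Cells that carried several of the genes at once made up a minority in every organoid sample. To put cells of different depth on an equal footing, each was thinned at random to 1000 UMIs, after which 184 of 307 cells of late 1 and 90 of 235 cells of early 1 had none of the 44 genes. Cells with 3 or more of the genes, called member-rich here, made up 6.19% of late 1 (19 of 307, 95% Clopper-Pearson interval 3.77 to 9.50), 14.7% of late 2 (53 of 360, 11.2 to 18.8) and 9.92% of late 3 (24 of 242, 6.46 to 14.4). In the early samples the share was 20% for early 1 (47 of 235, 15.1 to 25.7) and 9.27% for early 2 (29 of 313, 6.29 to 13.0). The intervals cover counting error only. Early 1 and late 2 stood above the other 3 samples in each of 20 further thinnings, where they ranged from 16.6 to 20.9% and from 14.2 to 18.6%, against 4.24 to 10.3% in the others. The mean over the 5 samples, 12.02%, lay above the range of those 20 thinnings (10.1 to 11.6%). Of the 172 member-rich cells 57 had exactly 3 genes and 143 further cells had exactly 2, so many cells lie near the limit. Without thinning, 42.4 to 84.7% of the cells of a sample had 3 or more of the genes.

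**Figure D2:**
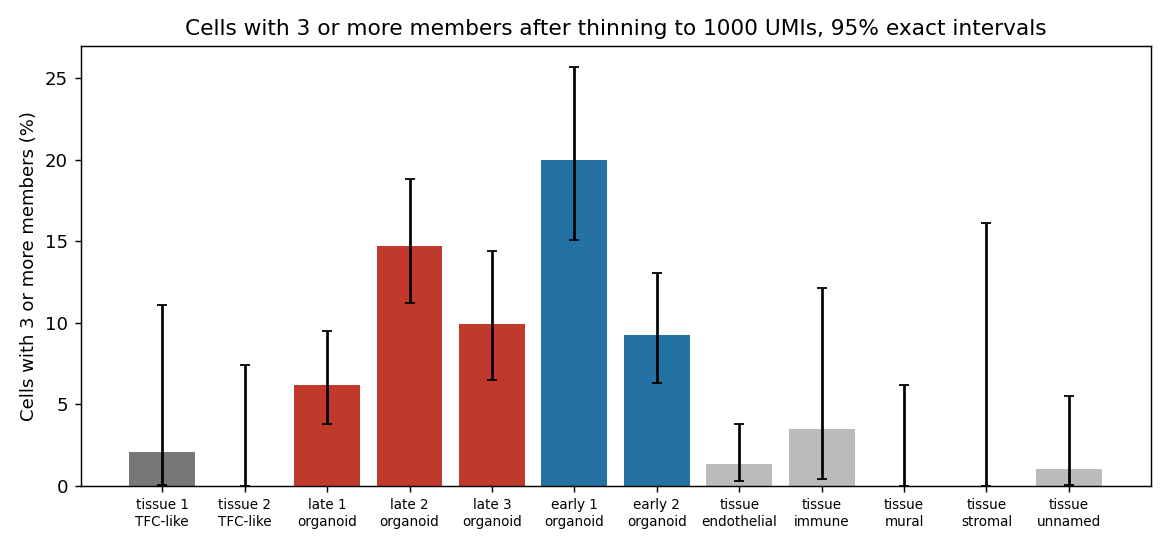
Share of cells with 3 or more of the 44 genes after thinning to 1000 UMIs (vertical axis, percent), for TFC-like cells of each tissue sample (dark gray), organoid samples (red late, blue early) and other tissue cell types of both samples together (light gray); bars of the error are 95% Clopper-Pearson intervals. Early 1 (20%) and late 2 (14.7%) are highest, and the mural and stromal bars are at 0%.

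In tissue such cells were few in every class. TFC-like cells gave 1 of 96 (1.04%, interval 0.0264 to 5.67), a cell of 1079 UMIs with 1 UMI each of Bub3, Kif4 and Racgap1. It held none of the replication genes, and other thinnings gave 0 to 2 such cells among the 96. Endothelial-like cells gave 3 of 229 (1.31%), immune-like cells 2 of 57 (3.51%) and cells of an unnamed cluster led by hemoglobin genes 1 of 99. Mural-like cells gave 0 of 58, with an interval up to 6.16%, and stromal-like cells 0 of 21, with an interval up to 16.1%. A pair of these tissue cells stood apart. One, an endothelial-like cell of tissue 1 with 12180 UMIs, held 30 of the 44 genes, with 20 UMIs of Mki67 and 13 of Top2a. The other, an immune-like cell of tissue 2 with 18847 UMIs, held 38 of the 44, with 20 UMIs of Mki67 and 23 of Top2a. The summed level was 5.74 and 4.64 in endothelial-like cells of tissue 1 and tissue 2, 4.86 and 7.82 in immune-like cells, 4.04 and 4.61 in mural-like cells and 3.57 and 4.89 in stromal-like cells. The immune-like value of tissue 2 includes the cell with 38 of the genes and was close to that of late 1 (7.80). The 2 deep wells of tissue 2 held 30 and 26 of the genes, but at summed levels of 4.17 and 3.51, close to the TFC-like mean.

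Passage stage did not order the organoid samples. The comparison of late with early samples gave 2 called genes of 12118 (0.0165%) in limma and 0 of the 30 members tested. At an unadjusted p under 0.05 in limma were 7 of the 30 members, against 2346 of the 12118 genes. Late and early samples did not overlap for 6 of the 30 members, against 39.5% of all genes tested. Of the 6, 5 were higher in both early samples, and these were Plk1, Bub1b, Kif11, Nusap1 and Prc1. The sixth, Bub3, was higher in all 3 late samples. Nusap1 had the smallest p (limma, unadjusted p = 0.000912, log2 difference late minus early -0.33). It was called lower in late samples when early 1 was left out, a fit with a lone early sample that called 1042 of 12246 genes lower and 90 higher. Summed over the 44 genes, the late mean of 11.4 ± 3.85 (SD, n = 3) and the early mean of 14.6 ± 6.53 (SD, n = 2) differed by less than their spread.

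The order that most of the genes shared cut across passage stage. Late 2 and early 1 were the 2 highest organoid samples for 34 of the 44 genes and for 22 of the 30 members tested in limma, against 9.2% of all genes tested. This pattern was looked for after the values had been seen. Late 2 and early 1 were also the deepest samples, with median depths of 12380.5 and 11059 UMIs, and the part of depth in the order was not tested. The genes outside it were Plk1, Bub1b, Kif11, Nusap1 and Prc1 (the early samples highest), Bub3 (late 1 and late 3), Kif4 (early 1 and late 1), Ccnb1 and Aurkb (early 1 and late 3) and Aurka (late 2 and late 3). Among member-rich cells the summed level was alike in the late samples, 51.0, 53.0 and 53.3, and was 59.8 in early 1 and 31.7 in early 2. In the remaining cells it was 4.96, 8.95, 6.13, 9.04 and 7.72 in late 1 to late 3 and early 1 and early 2. Member-rich cells carried from 29.5% (early 2) to 62.3% (early 1) of the summed level of their sample.

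Each gene was next read in cells chosen by the other 43, so that its own UMIs did not choose them. Levels were compared between cells with 3 or more of the other genes and cells with none of them, as means of the 5 organoid samples, and are given as a description. For 42 of the 44 genes the level was higher in the first class in all 5 samples, with a median ratio of 11.1. The exceptions, each higher in 4 of 5 samples, were Ttk and Kif11. Ratios were highest for Kif20a (0.916 ± 0.567 against 0.0124 ± 0.00927, SD, n = 5, a ratio of 73.6), Ccnb1 (45.1), Ccna2 (36.5), Cdca8 (34.7) and Aurkb (30.0). Of the genes at higher levels, Mki67 was at 2.07 ± 0.656 against 0.123 ± 0.0710 and Cenpa at 2.05 ± 0.696 against 0.122 ± 0.0719, both a ratio of 16.8. Hmmr followed the same pattern more steeply, with 1.55 ± 0.621 against 0.0675 ± 0.0359 and a ratio of 23.0. The order by share of UMIs, pooled over samples of different depth, was not the same. Cells with 3 or more other members held 83.6% of the UMIs of Ccnb1, 81.2% of Nuf2, 79.6% of Cdc20 and 78.8% of Ect2.

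A group of 6 genes was spread far more evenly. Pttg1 was at 2.58 ± 0.852 in cells with 3 or more other members and still at 1.19 ± 0.439 in cells with none (SD, n = 5), a ratio of 2.17, and 24.8% of its UMIs lay in the first class. Plk1 had a ratio of 2.21, Bub1b of 2.48, Nusap1 of 2.65, Smc4 of 2.67 and Bub3 of 2.76, and between 26.0% (Bub3) and 41.4% (Nusap1) of their UMIs lay there. Bub3, Plk1 and Pttg1 were, with Racgap1 (ratio 4.83), also the genes with the 4 highest tissue means. Bub1b and Nusap1 were also among the 5 genes whose values followed the well barcode most, with correlations of 0.121 and 0.0856 when cells sharing a barcode on separate plates were paired. The part of this in their spread was not tested. The others were Ttk (0.112), Cdk1 (0.0599) and Nuf2 (0.0533), and the remaining 39 were at 0.0475 or lower. Of 19498 genes, 2151 (11.03%) were above 0.1 on that measure.

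**Figure D3:**
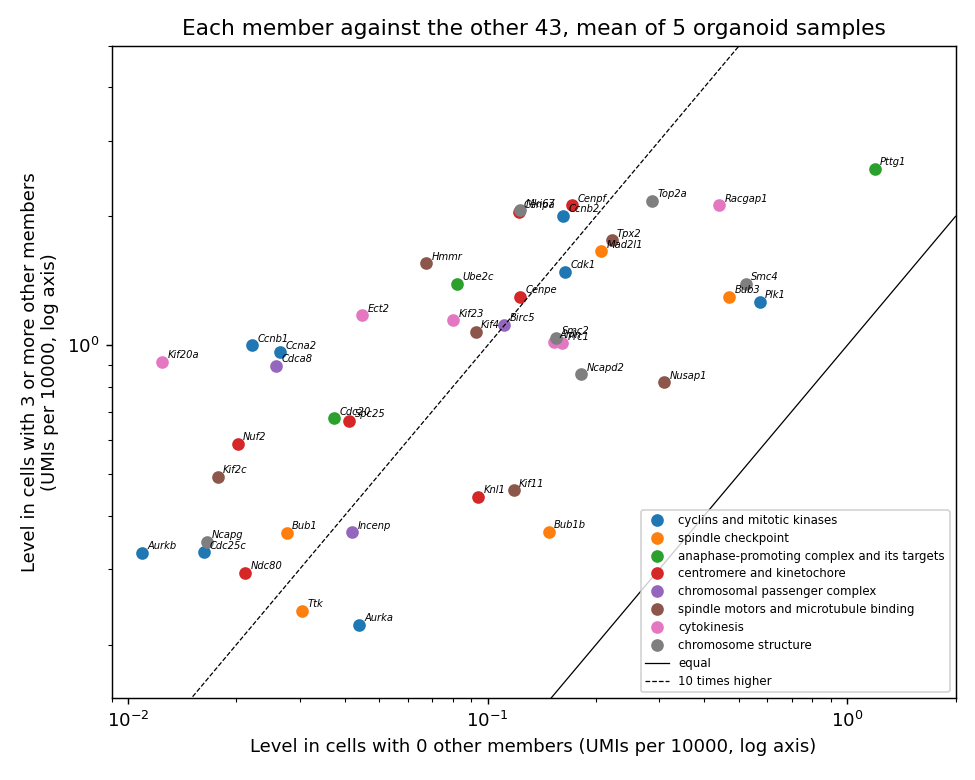
Level of each gene in cells with 3 or more of the other 43 genes (vertical, log axis) against its level in cells with none of them (horizontal, log axis), both in UMIs per 10000 as means of 5 organoid samples; colors are roles, the solid line marks equal levels and the dashed line a 10 times higher level. Kif20a and Ccnb1 lie far above the dashed line, and Pttg1, Plk1, Bub1b, Nusap1, Smc4 and Bub3 lie nearest the solid line.

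Pairs of the genes were found together more often than their separate frequencies in each sample gave. After thinning, the 946 pairs were found together 2339 times over 1457 organoid cells, where 911 were expected from the shares within samples, a ratio of 2.57. It was 3.06, 2.45 and 3.60 in late 1 to late 3, 2.51 in early 1 and 1.79 in early 2. Pairs of a member with 1 of 56 replication genes gave 1.66, and pairs of a member with 1 of 14 follicular cell genes gave 0.987. Of the 946 member pairs, 709 were above 1 after thinning. Without thinning all 946 were, at a ratio of 1.95 over all, but so were 2458 of 2464 pairs with a replication gene and 519 of 616 with a follicular cell gene. In the unthinned cells the highest ratios were those of Aurkb with Nuf2 (23 cells against 3.40 expected) and Aurkb with Ncapg (20 against 3.17), and the lowest that of Bub1b with Bub3 (63 against 57.7).

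Genes of DNA replication were used to choose cells without the 44 genes, to ask which mitotic genes were already raised in cells with replication RNA. Cells with 4 or more of the replication genes after thinning, replication-rich here, numbered 11, 39, 13, 24 and 9 in late 1 to late 3 and early 1 and early 2. Early 2 was left out for having fewer than 10, so the test compared 2 means in each of 4 samples. Replication-rich cells were deeper (median 12279.5 UMIs, against 7999 in the others), and 46 of the 96 were also member-rich. With limma, 194 of 13341 genes (1.45%) were higher and 33 lower. Of the 44 members, all past the filter (0.1 in at least 2 means), 26 rose and 0 fell, with a median log2 difference of 0.54 against -0.02 for all genes. Of the 44, 36 reached the filter in the other cells as well, and 21 of the 26 that rose were among these. The other 5, Aurka, Aurkb, Bub1, Nuf2 and Ncapg, passed the filter only through the replication-rich cells, so they entered the test only by being high there. Cdc25c, Ttk and Ndc80 passed it in the same way and were not called. Without the filter limma called 0 members, with 1 gene called in all.

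Top2a and Cdk1 led this comparison. Top2a was at 2.05, 2.91, 4.27 and 3.10 in replication-rich cells of late 1, late 2, late 3 and early 1, and at 0.252, 0.420, 0.247 and 0.806 in the other cells, a difference of 1.5 ± 0.15 (SE, log2 scale, limma adjusted p = 3.4e-05). Cdk1 was at 2.22, 1.86, 2.58 and 2.27 against 0.106, 0.253, 0.211 and 0.472 (1.36 ± 0.13, limma adjusted p = 2.6e-05). The classes did not overlap for either gene. Mad2l1 (1.03), Prc1 (0.97), Smc2 (0.92), Ccna2 (0.87), Spc25 (0.85), Aurkb (0.80), Mki67 (0.79) and Birc5 (0.75) came next, with adjusted p values of 0.000359 to 0.00391 in limma. Of the 26, 11 genes, namely Ccna2, Cdk1, Aurkb, Nuf2, Spc25, Birc5, Prc1, Ect2, Mki67, Top2a and Smc2, kept their call in every alternative apart from the one without the filter, Aurkb and Nuf2 with the limit just given. When late 1 was left out, 17 of the 44 members and 118 of 12775 genes were called higher.

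Pttg1 and Kif20a were among the 18 genes that did not pass. Pttg1 was at 0.737, 2.10, 1.16 and 3.33 in replication-rich cells and at 0.752, 1.99, 1.16 and 1.80 in the others, alike in all but early 1 (0.17 ± 0.14, limma adjusted p = 0.664). Kif20a was at 0, 0.432, 0 and 0.477 against 0.119, 0.139, 0.116 and 0.106, higher in 2 of 4 samples (0.11 ± 0.10, limma adjusted p = 0.677). For Kif2c (0.10), Cenpf (0.29), Cenpa (0.33), Cdc20 (0.38), Ccnb2 (0.41) and Hmmr (0.44) the adjusted p in limma was between 0.108 and 0.547. A p that misses the threshold does not show that these genes were level. By role, all 3 chromosomal passenger genes, 5 of 6 cytokinesis genes, 5 of 6 chromosome structure genes and 4 of 6 spindle motors and microtubule binding genes rose. So did 4 of 8 cyclins and kinases, 2 of 5 checkpoint genes, 2 of 7 kinetochore genes and 1 of 3 genes of the anaphase-promoting complex. Part of these counts was favored in advance by the filter, which some genes passed only through the replication-rich cells. Among the genes that rose these were Aurka and Aurkb of the kinases, Bub1 (checkpoint), Nuf2 (kinetochore) and Ncapg (chromosome structure). The counts therefore cannot be used to rank the roles.

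**Figure D4:**
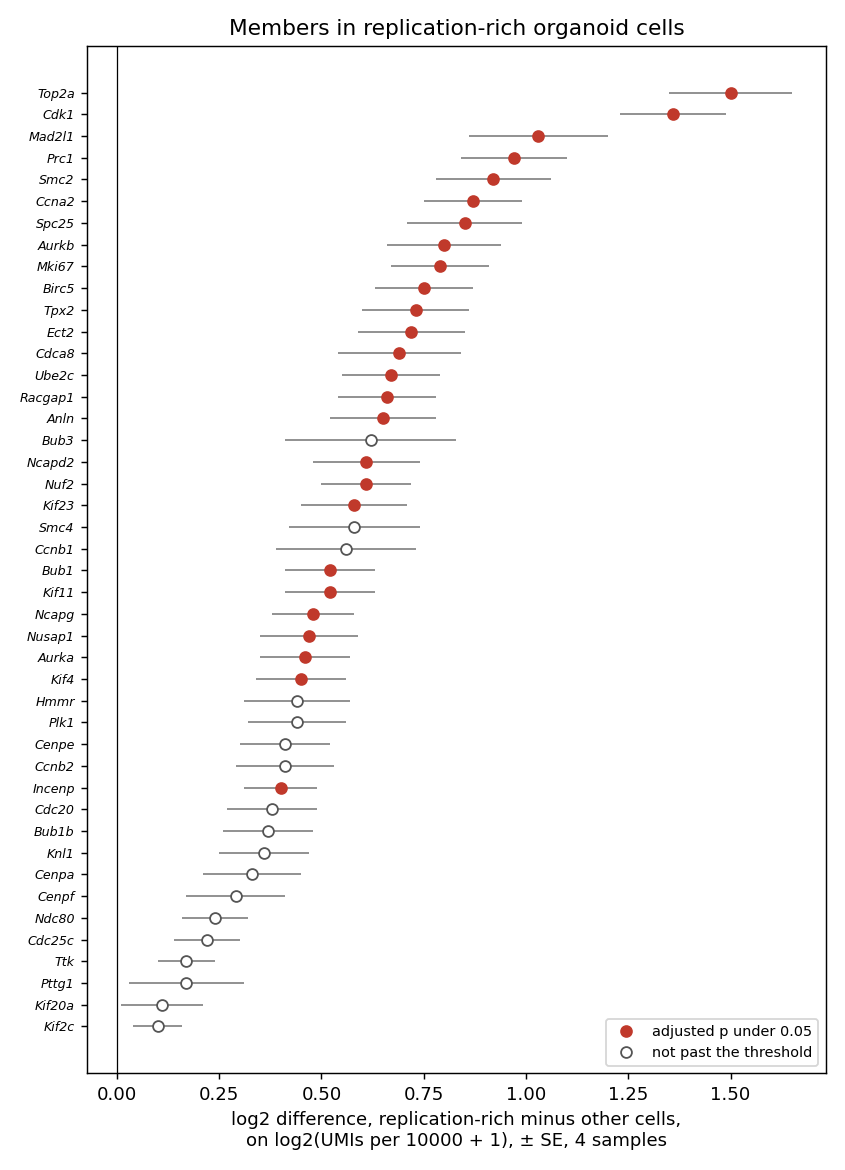
Difference of each of the 44 genes between replication-rich and other organoid cells (horizontal axis, log2 of UMIs per 10000 plus 1, with SE as lines) over 4 samples; filled points passed the limma test at an adjusted p under 0.05. Top2a (1.5) and Cdk1 (1.36) lie farthest right, and Kif20a, Kif2c and Pttg1 are among the open points nearest 0.

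Genes outside the list were compared between member-rich cells and the 691 cells with none of the 44 genes, in all 5 organoid samples. Median depths were 10589 and 7981 UMIs. Limma called 245 of 14470 genes higher (1.69%) and 81 lower (0.56%). Of 73 other division genes 71 were tested, and 37 rose and 0 fell. Stmn1, which destabilizes microtubules, was at 4.70 ± 2.06 in member-rich and 0.710 ± 0.217 in member-free cells (SD, n = 5), 1.67 ± 0.15 higher (SE, log2 scale, limma adjusted p = 2.5e-06). Tubb4b, a beta tubulin, was 1.61 higher, the chromatin protein Hmgb2 1.58 higher and Ckap2, a spindle protein, 1.47 higher, each in 5 of 5 samples. Of 57 replication genes 56 were tested, and 30 rose and 0 fell, led by Rrm2 (1.79 ± 0.739 against 0.118 ± 0.0704), Pcna (2.97 ± 1.02 against 0.678 ± 0.142), Pclaf (0.925 ± 0.381 against 0.0440 ± 0.0135) and Lig1 (0.929 ± 0.535 against 0.106 ± 0.0333). The median difference was 0.32 over the other division genes and 0.31 over the replication genes, against 0.00 for all genes tested. Without the filter 20 genes of all these cycle and follicular cell lists were called higher instead of 71, and Lig1 was not among them. Over all genes, 72 of 30154 were called higher in that fit. Pclaf in all 5 samples and Lig1 in 4 of 5 lay under the filter level of 0.1 in member-free cells. Esco2 and Cdc6, also among the genes that rose, lay under that level there in all 5 samples. The counts of genes that rose thus include genes that were tested only through their level in member-rich cells.

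Regulators of the cycle moved little beside those. Of 21 transcription regulators tested Rbl1, the p107 pocket protein, rose by 0.52 (limma adjusted p = 0.00310) and E2f1 rose by 0.37 (limma adjusted p = 0.0197). In member-free cells E2f1 lay under the filter level of 0.1 in every sample. It was thus tested only through its level in member-rich cells, so the filter favored its rise. Of 18 inhibitors tested Ccng1 rose by 0.42 and Pkmyt1, which holds Cdk1 inactive, by 0.37 (limma adjusted p = 0.0463 and 0.0204), and the Ccng1 call was lost in 9 of 11 alternatives, that of E2f1 in 6, of Pkmyt1 in 5 and of Rbl1 in 2. None of the 9 G1 cyclins and kinases was called in limma, with 3 at an unadjusted p under 0.05, as were 1773 of the 14470 genes tested. Of the follicular cell genes tested limma called 0 higher. Tg, thyroglobulin, fell: it was at 62.3, 66.7, 71.1, 62.1 and 87.5 in member-rich cells of late 1 to late 3, early 1 and early 2, against 139, 79.2, 166, 74.9 and 137 in member-free cells (-0.70 ± 0.11, limma adjusted p = 0.000729). Tg was lower in 5 of 5 samples, and its call was lost without the sample term and without the filter.

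The 12 genes outside the list that followed the summed genes most closely from cell to cell were mostly known division genes. Over 1457 organoid cells, on log values of thinned cells centered within sample, Pearson's r was 0.308 for Hmgb2, 0.299 for H2az1, a histone variant, 0.272 for Ckap2, 0.237 for Gm49980, 0.236 for Tubb4b and 0.230 for Pimreg. Cdca3 (0.227), Ptma (0.227), Stmn1 (0.221), Knstrn (0.212), Ckap2l (0.205) and Tubb5 (0.180) completed the 12 of 19454 genes ranked. Of the 12, 8 belong to the list of other division genes, and H2az1, Gm49980, Ptma and Tubb5 were in no list. The cells share libraries and each was read at 1000 UMIs, so these values describe sparse counts.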

How the data were processed

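Live (DAPI-negative) cells were sorted into 384-well plates and sequenced by SORT-seq, which tags each molecule with a UMI. The deposited values, for 30879 genes in 2590 cells, are the natural log of 1 plus UMIs per 10000 UMIs, as made by the authors. The submitters' processing notes name Trim Galore 0.4.3, STAR 2.5.3a and Seurat, with GRCm38 and mm10 as builds. UMIs were recovered by dividing each cell by its smallest value (100% of non-zero values whole within 0.01, on the assumption that the smallest value is 1 UMI), and samples summed to 1406925 to 4703472 UMIs. All plates share 384 barcodes, 305 of which were seen on all 7 plates.

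The members and lists were chosen with earlier results of these data known. Cells of at least 1000 UMIs were kept. Tissue cells were clustered with scanpy 1.11.5 without cycle genes and classes were named from fixed markers, so they can differ from the study's; doublets were not called. Sample means, log2(level + 1), were tested with limma 3.58.1 (trended variance, Benjamini-Hochberg over all genes tested, threshold 0.05), after a check on simulated data. As the unit is a log value, no count model was run. Values per sample are given for the 3 members of each role with the highest organoid mean and for members whose call differed from most of their role. Genes outside the list are the 4 largest differences per list and the 12 closest by correlation. Alternatives were another pseudocount, filter, depth limit, weighting, centering, class limit and leaving out each sample. Sequence windows came from RefSeq. The result for 1 follicular cell gene is not reported here.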

Additional observations from a re-analysis of the deposited data

Results flagged for a closer look

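Cells below 1000 UMIs entered no comparison above, and the genes were found there as well. Summed over such cells, the 44 genes gave 7.20, 10.3 and 13.3 UMIs per 10000 in late 1 to late 3 and 16.6 and 12.9 in early 1 and early 2, against 5.63 and 6.74 in tissue 1 and tissue 2, where all cell types are included. These values were set apart because every organoid sample lay above both tissue samples in data that the report does not use. They rest on 13 to 143 UMIs per organoid sample and on 26 and 38 UMIs in tissue, and no test was run.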

How the results depend on the processing

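No single gene changed direction in a called value under any alternative run. Members called higher in organoids than in tissue numbered 0 of 30 in the main setting, 2 with a pseudocount of 0.1, 16 with equal weights, and 0 to 14 when 1 sample was left out (12 without tissue 1, 14 without tissue 2, both fitted with equal weights, with the lone tissue sample assumed to vary like the others). With the replicate number as a block, tissue 1 and 2 against late 1 and 2, 9 of 25 members and 1502 of 11656 genes were called higher. The numbers only name samples, and the labels pair none of them. The deviations of tissue 1 and late 1 correlated at -0.0423 and those of tissue 2 and late 2 at 0.0213. With 2 tissue samples the deviations of 1 mirror those of the other, so these values cannot show whether samples shared a mouse. Without the 2 deepest wells, an alternative chosen after the data were seen, the count stayed at 0. Late against early gave 0 to 1 when 1 sample was left out, the 1 in a fit with a lone early sample. In replication-rich cells 26 members were called higher, with 194 of 13341 genes. Without a filter it was 0 members and 1 of 30402 genes. With 6 or more replication genes it was 15 members and 178 of 11969 genes. With 1 sample left out it was 17 to 22 members and 114 to 174 of 12703 to 13047 genes. Early 2, added after the data were seen by allowing 9 cells, gave 22 members and 170 of 14211 genes. Of the other cycle and follicular cell genes, 73 calls became 21 without a filter and 47 without a sample term, and 49 to 83 with 1 sample left out. Over all genes, 245 higher and 81 lower calls became 72 and 2 without a filter and 126 and 2 without a sample term. With 1 sample left out they were 154 to 261 higher and 35 to 78 lower. Without a filter more genes were tested. The other causes were not tested. The mean share of member-rich cells, 12.02%, became 21.8% with 2 or more genes, 5.35% with 5 or more, 67.7% without thinning and 21.6% at 2000 UMIs. The ratio of shared detection was 1.95 without thinning and 2.43 to 2.69 with 1 sample left out. In tissue, 24 of the 44 genes rest on fewer than 4 UMIs.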
